A study of Mus musculus with 8 samples.

Results

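Ventricles in which the myosin gene Myh7 was abundant were compared with ventricles in which it was scarce, across both genotypes of a mouse series on Pkp2. The 8 libraries of the series were split into classes chosen by their Myh7 level in CPM (the gene's count for each 1000000 counts of the library). The 4 libraries at 300 CPM or more, 2 HET and 2 WT, were called Myh7-high, and the 4 libraries under 300 CPM, 2 HET and 2 WT, were called Myh7-low. The classes were thus cut on a measured level and not on a treatment, and every difference given is an association with the Myh7 class across these 8 libraries. Myh7 itself has no test, because its counts made the classes.

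All 8 libraries came from mouse cardiac ventricle, left and right mixed, at 8 weeks of age. HET stands for the genotype PKP2 c.1755A/WT, which the series title describes as a heterozygous deletion, and WT for PKP2 WT/WT. RNA was extracted with Trizol and poly(A) RNA was sequenced with a stranded TruSeq kit. The series title places the mice in the study of desmosomal protein loss in arrhythmogenic cardiomyopathy. Strain, sex and treatment were not given in the labels, and whether each sample is a separate animal is not stated either. The p-values therefore measure only the spread between these samples, which may be technical. HET and WT replicates were numbered 1 to 4 in order of deposition.

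Adult mouse ventricle makes its contractile force with α-myosin heavy chain, the product of Myh6. Myh7 encodes β-myosin heavy chain, a slower motor that dominates the ventricle before birth and in large mammals, and that returns in the mouse heart under load or low thyroid hormone. Both genes lie next to each other on chromosome 14, and Mhrt is an antisense transcript that starts between them. The classical companions of Myh7 in a stressed heart are the natriuretic peptides Nppa and Nppb and the skeletal actin Acta1.

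Myh7 (ENSMUSG00000053093, chromosome 14, 54970684 to 54994626, minus strand, GRCm38) was at 1043 and 1046 CPM in HET 2 and HET 3 and at 1083 and 1018 CPM in WT 2 and WT 3. It was at 60 and 82.3 CPM in HET 1 and HET 4 and at 90.4 and 74.3 CPM in WT 1 and WT 4. The classes averaged 1048 ± 27.0 and 76.7 ± 13.0 CPM (SD, n = 4 each), a ratio of 13.6. No library lay near the limit of 300 CPM: the lowest Myh7-high library (WT 3, 1018 CPM) and the highest Myh7-low library (WT 1, 90.4 CPM) were 11.3-fold apart. Behind these levels stood 33800 to 43460 counts per library in the Myh7-high class and 2316 to 3727 in the Myh7-low class.

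Myh6, the neighbouring gene (ENSMUSG00000040752, chromosome 14, 54941921 to 54966927, minus strand), had like levels in both classes. On library sizes corrected by edgeR's TMM method, the scale of every level from here on, it was at 35152, 37642, 34266 and 33247 CPM in HET 2, HET 3, WT 2 and WT 3. The Myh7-low libraries HET 1, HET 4, WT 1 and WT 4 had 36909, 36638, 32760 and 33995 CPM, so the classes overlapped. The log2 difference, Myh7-high minus Myh7-low, was 0.00 (SE 0.044, 95% interval -0.10 to 0.10), with an adjusted p of 1. Its sign turned under other settings, among them upper-quartile scaling (-0.01). Per kilobase of exon, Myh7 was 2.16% to 2.43% of the sum of Myh6 and Myh7 in the Myh7-high libraries and 0.130% to 0.213% in the Myh7-low libraries. Another myosin heavy chain gene, Myh7b, had a log2 difference of -0.14 (SE 0.078, adjusted p = 0.845), and 0.02 with digits shared by some sample titles as a covariate. Mhrt was at 66.6 ± 8.7 CPM in Myh7-high and 76.5 ± 5.4 CPM in Myh7-low libraries (SD, n = 4 each; log2 difference -0.20, SE 0.094, adjusted p = 0.804). Mhrt overlaps Myh7 on the opposite strand, and the strand setting of the counting was not given in the sources used here.

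**Figure D1:**
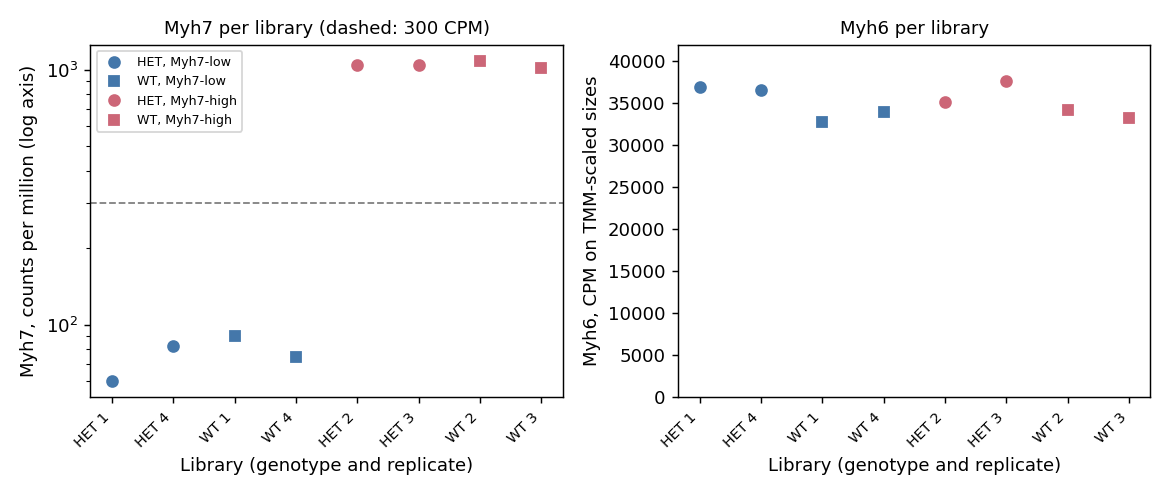
Level of Myh7 (left, CPM of the library total, log axis, with the limit of 300 CPM dashed) and of Myh6 (right, CPM on TMM-scaled library sizes) in each of the 8 libraries. Circles are HET and squares WT, blue is Myh7-low and red Myh7-high. The Myh7 values form a low set (60 to 90.4 CPM) and a high set (1018 to 1083 CPM), each with 2 HET and 2 WT libraries, while Myh6 lay between 32760 and 37642 CPM in both.

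The 250 bases before RefSeq's start of Myh7 and of Myh6 are shown because the first gene makes the classes and the second, next to it, did not pass the test between them. Both are RefSeq sequence on GRCm38.p6, written 5′ to 3′ on the gene's strand, chr14:54994627-54994876 (minus strand) for Myh7 and chr14:54966608-54966857 (minus strand) for Myh6. RefSeq's Myh6 start lies inside the GENCODE coordinates given for that gene, so this window does too. Capitals mark the MCAT motif, searched as CATTCC on both strands, to which muscle TEAD factors are known to bind.
Myh7: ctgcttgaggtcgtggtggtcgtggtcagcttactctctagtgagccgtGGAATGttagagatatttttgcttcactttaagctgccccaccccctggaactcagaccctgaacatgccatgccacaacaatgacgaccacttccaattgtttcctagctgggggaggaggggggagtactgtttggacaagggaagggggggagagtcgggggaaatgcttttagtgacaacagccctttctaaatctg
Myh6: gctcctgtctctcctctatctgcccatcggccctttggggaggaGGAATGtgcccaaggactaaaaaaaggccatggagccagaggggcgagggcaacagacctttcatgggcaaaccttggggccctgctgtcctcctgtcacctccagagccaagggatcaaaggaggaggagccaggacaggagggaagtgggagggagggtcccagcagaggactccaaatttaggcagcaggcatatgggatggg
Each window holds 1 MCAT match and no TATAAA on either strand, so the motifs share no bases. Of 32851 RefSeq promoter windows of the same length, 12.6% held an MCAT match and 12.4% a TATAAA. A match describes these letters and is not a measured binding site.

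Across all other genes few passed the test. Of 15067 genes tested with genotype as a covariate (edgeR's quasi-likelihood test, Benjamini-Hochberg adjustment, threshold 0.05), 9 passed, 0.0597% of all. Of these 5 were higher in Myh7-high libraries (0.0332%) and 4 lower (0.0265%). At an unadjusted p under 0.05 there were 952 genes (6.32%), 415 higher (2.75%) and 537 lower (3.56%). The 4 values of a class did not overlap with those of the other in 548 genes (3.64%), 255 higher (1.69%) and 293 lower (1.94%). The median log2 difference over all genes was 0.00, and 48.5% of genes had a value below 0.

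The 4 genes that were lower in Myh7-high ventricles encode a metabolic enzyme, a proteasome subunit and a pair of matrix proteins. Ogdhl, a mitochondrial 2-oxoglutarate dehydrogenase-like enzyme, was at 130.2, 143.5, 148.1 and 120.2 CPM in HET 2, HET 3, WT 2 and WT 3. In HET 1, HET 4, WT 1 and WT 4 it was at 357, 289, 280.3 and 246 CPM, above every Myh7-high library. The class means were 135.5 ± 12.7 and 293 ± 46.2 CPM (SD, n = 4 each), a log2 difference of -1.11 (SE 0.102, adjusted p = 0.00967), or a level 2.15-fold higher in the Myh7-low class. Ogdhl lies at 32322019 to 32348151 on chromosome 14, plus strand.

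Psmb5, the proteasome subunit with chymotrypsin-like activity, was at 21.3, 19.2, 20.2 and 19.5 CPM in the Myh7-high libraries (HET 2, HET 3, WT 2, WT 3). The Myh7-low libraries (HET 1, HET 4, WT 1, WT 4) had 30.9, 27.9, 25.7 and 29.5 CPM, all higher. Its log2 difference was -0.51 (SE 0.068, adjusted p = 0.0408). Psmb5 lies at 54614119 to 54618022 on chromosome 14, minus strand, 0.377 Mb from Myh7. A processed copy, Gm3375 on chromosome 7, matches 796 bases of the Psmb5 transcript at 98.9% identity, so its counts depend on how shared reads were assigned.

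Postn and Vcan are made mainly by fibroblasts and other stromal cells. Postn encodes periostin, a matricellular protein of activated fibroblasts. It was at 33.6, 30.9, 36.7 and 30.6 CPM in the Myh7-high libraries and at 49.9, 47.9, 54.1 and 48.6 CPM in the Myh7-low libraries, in the same order. The log2 difference was -0.61 (SE 0.067, adjusted p = 0.0173), with -0.60 within HET and -0.61 within WT. Vcan, the large proteoglycan versican, was at 12.3, 12.4, 13.3 and 13.2 CPM against 16.8, 17.2, 18.2 and 18.1 CPM. Its log2 difference was -0.45 (SE 0.056, adjusted p = 0.0278), with -0.46 within HET and -0.45 within WT. For both genes the lowest Myh7-low library was well above the highest Myh7-high library.

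Of the 5 genes that were higher in Myh7-high ventricles, 2 encode a known protein. Ramp1, a single-pass membrane protein that makes the calcitonin receptor-like receptor respond to CGRP, was at 10.3, 8.72, 9.05 and 10.8 CPM in HET 2, HET 3, WT 2 and WT 3. It was at 5.92, 5.08, 4.11 and 5.07 CPM in HET 1, HET 4, WT 1 and WT 4. The log2 difference was 0.95 (SE 0.124, adjusted p = 0.0394), and no Myh7-low library reached a Myh7-high one. Ccnb1ip1, a cyclin B1-interacting E3 ligase known for its role in meiotic crossing over, had 20, 27, 22 and 22 counts in HET 2, HET 3, WT 2 and WT 3 and 0 counts in each of the 4 Myh7-low libraries. The sums were 91 counts of 150343207 and 0 of 154298221, so the pooled level was at least 31.1-fold higher in the Myh7-high class when the 0 is set at a floor of 3 counts over the group. Ccnb1ip1 reached the filter's limit of 0.259 CPM in the 4 Myh7-high libraries and in 0 Myh7-low ones, as did the pair of pseudogenes described next. A gene that enters the test through 1 class is bound to show a large difference, so these 3 are described here by their counts. All 3 also passed the threshold with no filter on low counts. Of the 14413 genes that reached the limit in at least 2 libraries of each class, 6 were called (0.0416%), 2 higher and 4 lower.

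The other 3 higher genes, chosen after their values were seen because the rule for named genes leaves out predicted genes, were a long non-coding RNA and a pair of processed pseudogenes. 4930480K23Rik (chromosome 14, 69732784 to 69767113, plus strand) was at 6.07, 5.79, 4.71 and 5.25 CPM in HET 2, HET 3, WT 2 and WT 3 and at 1.80, 1.74, 2.74 and 2.61 CPM in HET 1, HET 4, WT 1 and WT 4. Its log2 difference was 1.31 (SE 0.173, adjusted p = 0.0394). Gm6768 (chromosome 12, 119260978 to 119262855, plus strand) had 78, 98, 70 and 78 counts in the Myh7-high libraries, in the same order, and 9, 9, 10 and 3 in the Myh7-low libraries. That is 2.17 ± 0.41 against 0.202 ± 0.084 CPM (SD, n = 4 each). Gm5828 (chromosome 1, 16768279 to 16770138, minus strand) had 23, 21, 26 and 33 counts against 2, 1, 1 and 2. The few counts of the low class limit the precision of both comparisons.

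**Figure D2:**
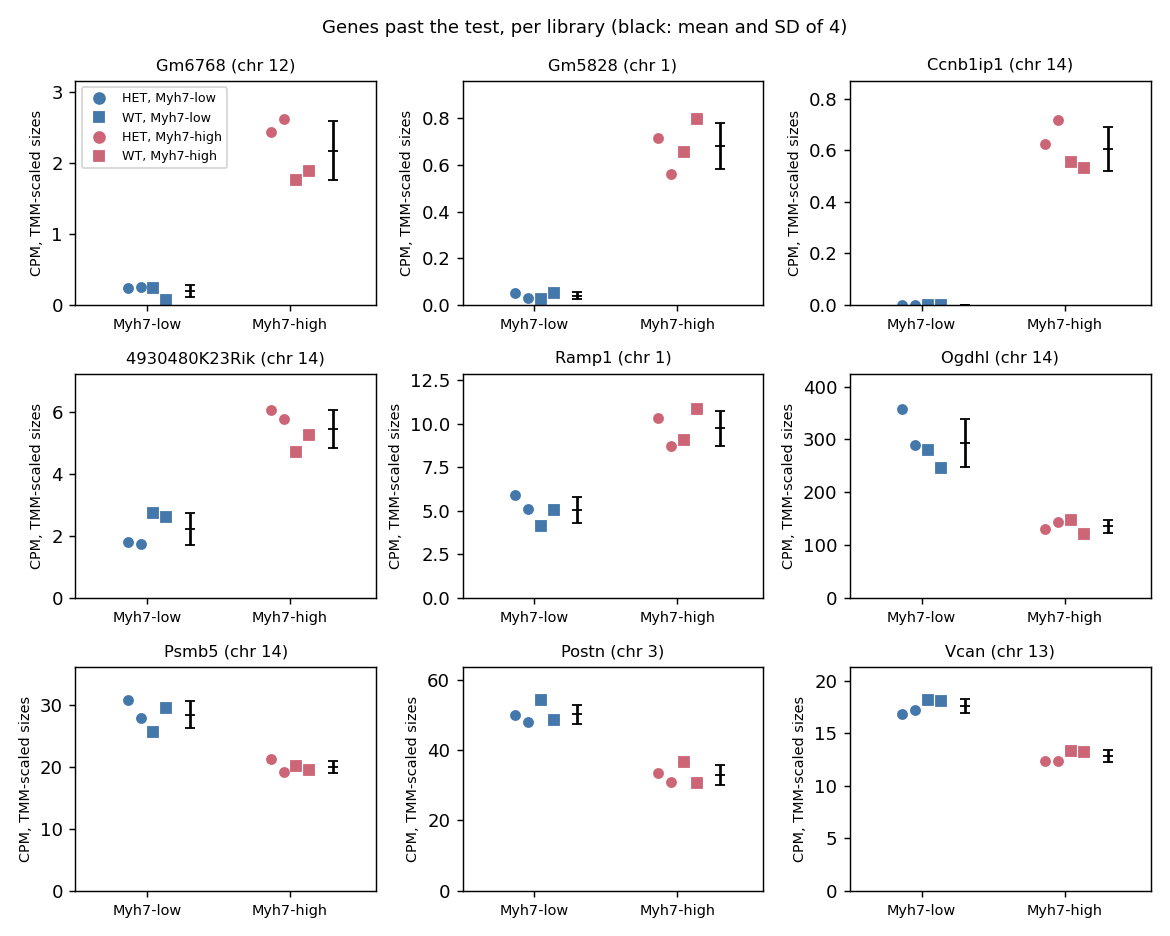
Level in CPM (TMM-scaled library sizes, axes from 0) of the 9 genes past the threshold, 1 panel per gene with its chromosome. Each point is a library (circles HET, squares WT, blue Myh7-low, red Myh7-high), and the black marks are the mean and SD of the 4 libraries of a class. In every panel the classes do not overlap.

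Leaving out 1 library at a time tested how far these calls rest on single libraries. Of the 6 called genes that both classes brought past the filter, Ogdhl lost the call without HET 4, WT 1 or WT 3 (adjusted p up to 0.0694, log2 difference -1.19 to -1.01). Postn lost it without any 1 of the 4 HET libraries or without WT 1 (up to 0.103). Ramp1 and 4930480K23Rik each passed in 1 of the 8 fits (adjusted p up to 0.251 for both). Psmb5 and Vcan passed in none (adjusted p 0.0678 to 0.214 and 0.0510 to 0.197), while their log2 differences stayed between -0.55 and -0.47 and between -0.46 and -0.45. The calls of the 3 genes that passed the filter through the Myh7-high class are listed but not used as support. Gm6768 kept the call in all 8 fits, Gm5828 lost it without HET 4 or WT 1, and Ccnb1ip1 kept it only without WT 4. With the title digits described at the end as a covariate, Ccnb1ip1, Gm5828, Ramp1, Vcan and 4930480K23Rik did not pass. Psmb5 did not pass with upper-quartile or library-size scaling, and Psmb5, Ramp1 and 4930480K23Rik did not pass with limma-voom or with a filter of 1 CPM in 4 libraries. Ramp1 did not pass with log2 Myh7 CPM as a continuous covariate. Ccnb1ip1 and Gm5828 were not tested under the filter of 1 CPM, which removes them. No setting turned the direction of any of the 9. Their classes did not overlap, so leaving out a library was bound to keep the direction.

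Of the 9 called genes, 4 lie on chromosome 14, the chromosome of Myh7 itself: Ogdhl, Ccnb1ip1, Psmb5 and 4930480K23Rik. Without the 3 genes that entered through the Myh7-high class, 3 of 6 lie there. Both pseudogenes, on chromosomes 12 and 1, are near copies of genes on chromosome 14. The Gm6768 transcript matched Ncoa4 (chromosome 14, 32159865 to 32179855, plus strand) over 1878 bases with 2 mismatches, 99.9% identity. Gm5828 matched Tox4 (chromosome 14, 52279146 to 52296401, plus strand) over 1858 bases with 44 mismatches, 96.7% identity. The following 60-base stretches come from the GENCODE M21 transcripts, inside the coding sequence of the parent gene. They were chosen for the most differing bases among such stretches without gaps, so the others differ as much or less. Even these show how little separates a read of the copy from a read of its parent. Capitals mark the bases that differ within each pair.
Gm6768: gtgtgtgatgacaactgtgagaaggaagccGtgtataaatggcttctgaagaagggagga
Ncoa4: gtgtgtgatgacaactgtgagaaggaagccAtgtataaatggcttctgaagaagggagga
Gm5828: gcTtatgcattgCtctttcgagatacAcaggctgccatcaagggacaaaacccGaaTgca
Tox4: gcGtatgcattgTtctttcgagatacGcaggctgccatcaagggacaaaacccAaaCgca
The first pair differs at 1 base of 60 and the second at 5 of 60.

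Neither parent gene passed the test. Ncoa4, a ferritin autophagy receptor, had 374, 585, 403 and 547 counts in HET 2, HET 3, WT 2 and WT 3 and 602, 585, 549 and 444 in HET 1, HET 4, WT 1 and WT 4. Its log2 difference was -0.16 (SE 0.116, 95% interval -0.42 to 0.10, adjusted p = 0.901). Tox4, an HMG-box chromatin protein, had 1220 to 1712 counts in the Myh7-high libraries and 1451 to 1726 in the Myh7-low libraries. The log2 difference was -0.06 (SE 0.061, 95% interval -0.19 to 0.08, adjusted p = 0.942). For Ncoa4 the 4 Myh7-high libraries had 70 to 98 counts on the copy beside 374 to 585 on the parent, and the Myh7-low libraries had 3 to 10 beside 444 to 602. Whether the libraries carry different sequence at these loci was not tested, because a count table holds no sequence.

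Chromosome 14 was then set beside the others, a tally made after the positions of the called genes were seen. It held 513 tested genes, of which 4 were called (0.780%), against 5 of 14554 (0.0344%) elsewhere. The genes counted as elsewhere include 143 without a position. Among genes that reached the filter in both classes the counts were 3 of 489 (0.613%) and 3 of 13924 (0.0215%). At an unadjusted p under 0.05 stood 66 genes of chromosome 14 (12.9%), against 886 (6.09%) elsewhere. The next highest shares were 11.3% on chromosome 8 and 9.39% on chromosome 1. Classes that did not overlap were found for 47 genes of chromosome 14 (9.16%) and for 3.44% of the genes elsewhere. With each library left out in turn, the share at an unadjusted p under 0.05 was 9.36% to 13.6% on chromosome 14. It was 7.98% to 12.04% on chromosome 8 and 4.54% to 7.14% over all genes not placed on chromosome 14. Without HET 3, chromosome 8 (12.04%) stood above chromosome 14 (11.3%).

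Along chromosome 14 the differing genes lay on 1 side of Myh7 more than on the other. In the 10 Mb below the Myh7 start, toward lower coordinates, 22 of 90 tested genes (24.4%) had an unadjusted p under 0.05 and 19 (21.1%) had classes that did not overlap. In the 10 Mb above it, 5 of 107 (4.67%) had such a p. From 10 to 20 Mb above it were 12 of 66 (18.2%), and from 30 to 20 Mb below it 12 of 82 (14.6%). The 22 genes of the window next to Myh7 went in both directions. The arginine methyltransferase Prmt5 (39.4 against 45.7 CPM), the lipase Abhd4 (53.3 against 64.1) and the membrane protease Mmp14 (16.3 against 19.3) had lower mean values in the Myh7-high class, and the histone chaperone subunit Supt16 (34.8 against 31.0) a higher one; none of these passed the adjusted threshold. These 4 were chosen after their values were seen, and none passed the adjusted threshold. Tnfrsf10b, a death receptor 14.8 Mb above Myh7 and just after 4930480K23Rik on the same strand, was at 6.43 ± 0.81 against 3.85 ± 0.23 CPM (SD, n = 4 each; log2 difference 0.74, SE 0.106, adjusted p = 0.0618).

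**Figure D3:**
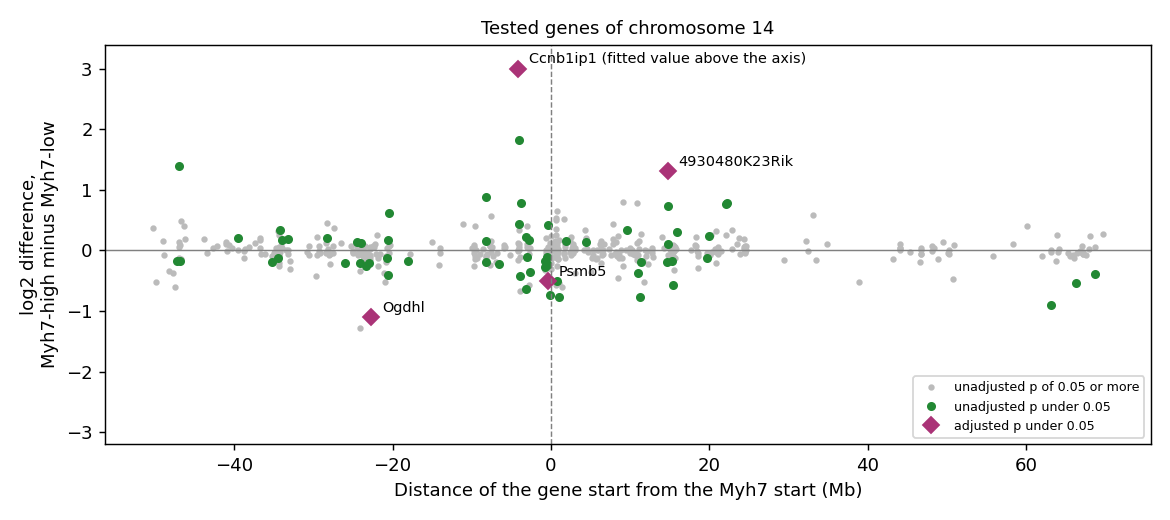
Log2 difference (Myh7-high minus Myh7-low, vertical axis) of the 513 tested genes of chromosome 14 against the distance of the gene's start from that of Myh7 in Mb (horizontal axis, dashed line at Myh7). Grey points had an unadjusted p of 0.05 or more, green points one under 0.05, and purple diamonds an adjusted p under 0.05. Ccnb1ip1 is drawn at the upper edge, because its fitted value lies beyond the axis and is not a bound. Green points are frequent in the 10 Mb below Myh7 and sparse in the 10 Mb above it.

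Of 30 tested collagen and matrix genes, Vcan alone passed the adjusted threshold, beside 0.0265% of all genes called lower. The log2 difference was below 0 for 29 members and above 0 for 1. At an unadjusted p under 0.05, 25 of 30 had a value below 0, beside 3.56% of all genes. Classes did not overlap for 17, all with a value below 0, beside 1.94% of all genes. The median log2 difference of the list was -0.28 (-0.32 within HET and -0.24 within WT), beside 0.00 over all genes. The list score of a library, which averages its members' log2 CPM after each gene is centred on the 8 libraries, was -0.24 to -0.09 in the Myh7-high and 0.13 to 0.18 in the Myh7-low libraries. With each library left out in turn, 29 or 30 members had a value below 0 and the median stayed between -0.33 and -0.27.

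The fibrillar collagens that give the tissue its tensile strength show the size of the difference. Col3a1 was at 269, 292, 283 and 322 CPM in HET 2, HET 3, WT 2 and WT 3 and at 369, 350.3, 371 and 373 CPM in HET 1, HET 4, WT 1 and WT 4. Its log2 difference was -0.33 (SE 0.055, adjusted p = 0.150). Col1a1 was at 155 to 173 CPM against 171 to 205 CPM (log2 difference -0.28, SE 0.061, adjusted p = 0.347), with 1 pair of libraries overlapping. The minor fibrillar chains Col5a1 and Col5a2, which set fibril diameter, had log2 differences of -0.24 (SE 0.046) and -0.27 (SE 0.050), both with an adjusted p of 0.270. Elastic fibres are built on elastin and fibrillin. Elastin (Eln) was at 30.8, 35.4, 23.2 and 31.1 CPM against 45.7, 49.4, 43.6 and 38.9 CPM (log2 difference -0.56, SE 0.093, adjusted p = 0.152), and fibrillin-1 (Fbn1) had a log2 difference of -0.34 (SE 0.064, adjusted p = 0.270). With DESeq2 in place of edgeR, Col1a1, Col3a1, Col5a1, Col5a2, Eln and Fbn1 passed the same threshold. DESeq2 called more genes of any kind, 42 lower and 19 higher in all, against 4 and 5 with edgeR.

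**Figure D4:**
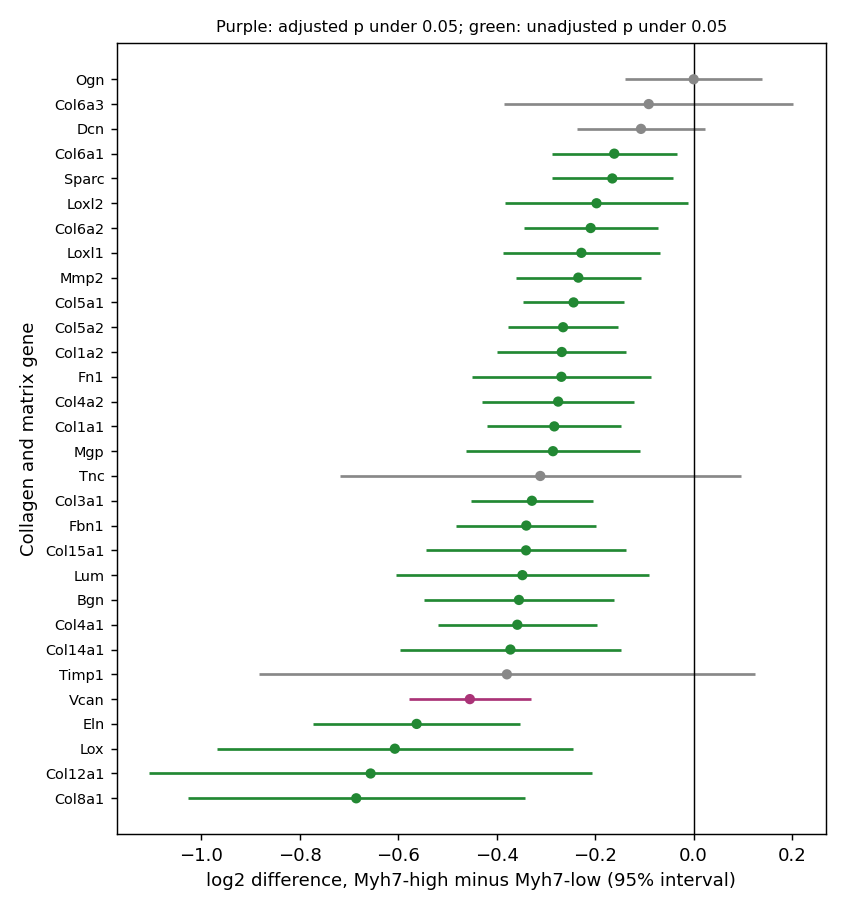
Log2 difference, Myh7-high minus Myh7-low, of the 30 tested collagen and matrix genes (points) with its 95% interval from the fit (lines), ordered by size. Purple marks Vcan, with an adjusted p under 0.05, green an unadjusted p under 0.05, and grey the rest. The median was -0.28, and all points except Ogn lie below 0.

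Fibroblast markers lay below 0 as the matrix genes did. All 7 of the list (Col1a1, Col1a2, Col3a1, Pdgfra, Dcn, Lum and Tcf21) had a value below 0, 4 at an unadjusted p under 0.05 (3.56% of all genes) and none past the adjusted threshold, with a median of -0.27. Their summed level was 932 to 1071 CPM in the Myh7-high and 1117 to 1188 CPM in the Myh7-low libraries, without overlap, and none of the 7 was at 0. In bulk tissue, fewer cells of a type and less RNA per cell cannot be told apart. Collagen genes stand in both lists, and the part of fibroblast number in the matrix differences was not tested. Of 15 tested genes of activated or tendon-like fibroblasts, 12 had a value below 0 with a median of -0.39. At an unadjusted p under 0.05, 7 were lower and 1 higher, beside 3.56% and 2.75% of all genes. Classes did not overlap for 4, all lower, beside 1.94% of all genes. Postn was called, beside 0.0265% of all genes called lower. Without WT 2 the list's median was -0.59 with 3 members called, of 13 genes called in all. Without HET 1, HET 2, HET 3, HET 4 or WT 1 no member was called. The score of this list overlapped between classes, at -0.47 to -0.03 in Myh7-high and -0.08 to 0.26 in Myh7-low libraries. Meox1, a transcription factor of activated fibroblasts, was at 12.1 ± 1.5 against 17.3 ± 0.59 CPM (SD, n = 4 each; log2 difference -0.52, SE 0.087, adjusted p = 0.150).

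Genes known to accompany Myh7 in the stressed heart were, taken as a list, not higher with it here. Of 21 tested stress and fetal genes, 20 had a value below 0 and 1 above, with a median of -0.25. Of those below 0, 5 had an unadjusted p under 0.05 (3.56% of all genes). Only Postn passed the adjusted threshold (0.0265% of all genes), the same gene that was called in the activated fibroblast list. With the title digits as a covariate the median was -0.14. Acta1 was at 354, 642, 319 and 599 CPM in HET 2, HET 3, WT 2 and WT 3 and at 1590.1, 767, 1827 and 825 CPM in HET 1, HET 4, WT 1 and WT 4. Every Myh7-high library was thus below every Myh7-low library, but the spread within a class was wide and the log2 difference of -1.39 (SE 0.441) had an adjusted p of 0.727. Nppb was at 189 ± 28 against 221 ± 26 CPM (SD, n = 4 each), a log2 difference of -0.23 (SE 0.105, adjusted p = 0.801). Nppa is not given on its own here. Slow skeletal fibre genes, among which Myh7 is counted in limb muscle, had a median of -0.04 over 10 tested members, with 3 above and 7 below 0.

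No gene of the thick or thin filament lists was called. Among 14 thick filament and myosin genes, 8 had a value above and 6 below 0 (median 0.00, none called). Mybpc3, cardiac myosin-binding protein C, had the smallest p, at 4509 ± 323 against 5271 ± 402 CPM (SD, n = 4 each; log2 difference -0.22, SE 0.068, adjusted p = 0.60). Of 23 thin filament and Z-disc genes, 16 had a value below 0 (median -0.07, none called), with Pdlim5, a Z-disc scaffold, at -0.21 (SE 0.063, adjusted p = 0.591). Classes did not overlap for 3 of them, Acta1, Actn2 and Pdlim5, all with a value below 0, beside 1.94% of all genes. The score of this list was -0.15 to -0.00 in Myh7-high and 0.01 to 0.12 in Myh7-low libraries, without overlap. Hspb6, a small heat shock protein of muscle named for its small p, was at 955 ± 43 against 1168 ± 21 CPM (SD, n = 4 each; log2 difference -0.29, SE 0.047, adjusted p = 0.134) and its classes did not overlap. Thyroid hormone is known to drive Myh6 and Myh7 in opposite directions. The genes listed as responsive to it had a median of 0.03 over 23 tested members, 14 above and 9 below 0. At an unadjusted p under 0.05, 4 were lower and 0 higher, beside 3.56% and 2.75% of all genes. Hcn2, a pacemaker channel of that list, was at 40.6 ± 5.1 against 51.8 ± 6.8 CPM (SD, n = 4 each; log2 difference -0.36, SE 0.097, adjusted p = 0.516).

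Desmosome genes lay near 0. Of 7 tested, 4 had a value above and 3 below 0, none was called, and the median was 0.03. Pkp2, the gene of the series' mutation, was at 88.1 and 96.1 CPM in the Myh7-high HET libraries and 99.3 and 105.6 CPM in the Myh7-low HET libraries. The WT libraries had 168 and 148 CPM (Myh7-high) and 169 and 166 CPM (Myh7-low), so each HET library was below each WT library in both classes. The class difference was -0.12 (SE 0.057, adjusted p = 0.816). Jup, plakoglobin, had -0.14 (SE 0.056, adjusted p = 0.744), and Dsg2, a desmosomal cadherin, 0.15 (SE 0.072, adjusted p = 0.808).

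Excitation, calcium and transcription factor lists held no called gene. Of 18 potassium and sodium channel genes, 11 had a value above 0 (median 0.03). Kcnd3, a subunit of the transient outward current, was at 21.5 ± 1.3 against 17.9 ± 1.4 CPM (SD, n = 4 each; log2 difference 0.27, SE 0.073, adjusted p = 0.499) with classes that did not overlap. The median was -0.04 over 18 calcium handling genes, 0.05 over 17 conduction system genes and 0.05 over 17 adrenergic signalling genes. Among 22 cardiac transcription factors, 16 had a value above 0 (median 0.04). Sox6, known to repress slow-fibre genes in skeletal muscle, was at 14.5, 15.3, 13.5 and 15.9 CPM in HET 2, HET 3, WT 2 and WT 3 against 12, 12.3, 12.3 and 12.3 CPM (log2 difference 0.27, SE 0.071, adjusted p = 0.454). Tbx5 had 0.24 (SE 0.079, adjusted p = 0.652).

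Metabolic lists were likewise near 0. The median was 0.01 over 25 fatty acid oxidation genes, -0.02 over 21 glycolysis and glucose uptake genes and -0.01 over 7 mitochondrially encoded genes tested. Acot1, an acyl-CoA thioesterase, was at 12 ± 2.1 against 9.32 ± 1.9 CPM (SD, n = 4 each; log2 difference 0.37, SE 0.160, adjusted p = 0.784). Slc2a1, the basal glucose transporter, had -0.25 (SE 0.108, adjusted p = 0.764) and Slc2a4, the insulin-responsive one, -0.13 (SE 0.043, adjusted p = 0.648).

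Markers of the tissue and of other cell types were checked in each class. The 6 ventricular myocyte markers had a median of 0.00 and a summed level of 68304 to 70100 CPM in Myh7-high and 66133 to 71977 CPM in Myh7-low libraries, and the 4 lung markers together stayed at or below 0.0278 CPM. Of 10 tested atrial myocyte markers 5 had a value above and 5 below 0, and of 14 tested genes patterned between chambers and wall layers 11 were above 0 (medians -0.02 and 0.03). Endothelial and smooth muscle or pericyte markers had medians of -0.10 (6 genes) and -0.13 (7 genes). In each of these lists 2 genes were lower at an unadjusted p under 0.05 and 0 higher, beside 3.56% and 2.75% of all genes. Pdgfrb, a pericyte and fibroblast receptor, was at 106 ± 7.2 against 125 ± 8.2 CPM without overlap (SD, n = 4 each; log2 difference -0.23, SE 0.052, adjusted p = 0.365). Wt1, the only mesothelial marker tested of 5, was at 5.87 ± 0.49 against 4.21 ± 0.92 CPM (SD, n = 4 each; log2 difference 0.49, SE 0.161, adjusted p = 0.652). The summed mesothelial level was 5.48 to 6.91 CPM in Myh7-high and 2.96 to 5.23 CPM in Myh7-low libraries. The median was 0.40 over 4 lymphocyte markers tested, all above 0, and 0.31 over 5 adipocyte markers, 4 above 0, at low summed lymphocyte levels (7.63 to 16.0 and 7.74 to 9.30 CPM). It was 0.05 over 5 endocardial, -0.09 over 4 Schwann cell, -0.16 over 5 skeletal muscle and -0.02 over 5 red cell markers. None of these genes was called.

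In interferon response genes 1 library, WT 3, stood apart. Of 20 interferon response genes, 19 had a value above 0 with a median of 0.67, but the median was -0.18 within HET and 1.16 within WT, and without WT 3 it was 0.04 with 11 above 0. Iigp1, an interferon-inducible GTPase, was at 59.7, 82.0, 68.4 and 1723 CPM in HET 2, HET 3, WT 2 and WT 3 and at 39.4 to 46.2 CPM in the Myh7-low libraries (log2 difference 2.57, SE 1.41, adjusted p = 0.858). Macrophage markers had a median of 0.05, and without WT 3 all 6 were below 0. The matrix median without WT 3 was -0.27. Immediate early genes (20 tested, median 0.29) and circadian clock genes (19 tested, median 0.24) held no called member. Within HET and WT the medians were 0.08 and 0.28 for immediate early genes and 0.03 and 0.37 for clock genes. The immediate early score was -0.40 to 0.45 in Myh7-high and -0.23 to 0.08 in Myh7-low libraries. The clock score was -0.22 to 0.57 against -0.29 to 0.03, so the classes overlapped in both lists. With the title digits as a covariate the clock median was -0.08. Fos had 37.1 ± 15 against 19.7 ± 6.0 CPM (SD, n = 4 each; log2 difference 0.92, SE 0.362, adjusted p = 0.784). Cell cycle genes had a median of 0.11 over 23 tested, but -0.25 within HET and 0.25 within WT. Their score was -0.40, -0.32, 0.21 and 0.65 in HET 2, HET 3, WT 2 and WT 3. It was -0.15 to 0.07 in the Myh7-low libraries. Mcm6, a replication helicase subunit and the member of smallest p, was at 9.56 ± 2.0 against 6.61 ± 0.81 CPM (SD, n = 4 each). Its log2 difference was 0.53 (SE 0.150, adjusted p = 0.536).

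The genes whose pattern was most like that of Myh7 were taken by Pearson's r of log2 CPM over the 8 libraries among 8473 genes of at least 10 CPM, as a description. The highest were Ccnl1 (r = 0.94), Rapsn (0.92), Stk25 (0.92), Isg20l2 (0.92) and Tra2a (0.92). Ccnl1, a cyclin tied to splicing, was at 32.8 ± 1.2 against 28.8 ± 0.41 CPM (SD, n = 4 each; log2 difference 0.19, SE 0.051, adjusted p = 0.480). The lowest were Fuca2 (r = -0.98), Psmb5 (-0.97), Vcan (-0.97), Ogdhl (-0.96) and Hspb6 (-0.96). Fuca2, a fucosidase, was at 254 ± 5.5 against 288 ± 4.4 CPM (SD, n = 4 each; log2 difference -0.18, SE 0.043, adjusted p = 0.394). Since Myh7 takes a low or a high value with little between, these r values rest on the class difference.

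HET and WT were also asked whether their class differences differ. In the interaction of genotype and class, 0 of 15067 genes passed edgeR's quasi-likelihood test (0%), 490 had an unadjusted p under 0.05 (3.25%), and DESeq2 called 18 with 311 at an unadjusted p under 0.05. Side by side, Ogdhl had -1.23 within HET and -0.98 within WT, Psmb5 -0.53 and -0.47, Ramp1 0.78 and 1.11, and 4930480K23Rik 1.71 and 0.88. A difference between genotypes was not detectable by edgeR with 2 libraries in each cell.

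Depth and mitochondrial content overlapped between the classes. Total counts were 32397302 to 40119645 in Myh7-high and 35942073 to 41234883 in Myh7-low libraries (exact two-sided permutation test, p = 0.686). The share of counts from mitochondrially encoded genes was 17.7% ± 2.1 and 17.7% ± 0.41 (SD, n = 4 each; exact p = 1). The smallest p that 4 against 4 can give is 0.0286. The sample titles hold digits of unstated meaning that some samples share. HET 1, HET 3, HET 4 and WT 1 share one such set of digits and HET 2, WT 3 and WT 4 share another, and WT 2 stands alone. The first set holds 3 Myh7-low libraries and 1 Myh7-high one, and the other 4 libraries are 3 Myh7-high and 1 Myh7-low, so the digits are unevenly spread over the classes. Since the classes of the 9 called genes did not overlap, their direction was the same within both sets that hold more than 1 library.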

How the data were processed

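Read counts per gene were deposited as raw whole numbers for 38293 Ensembl genes in 8 libraries, made by the authors with STAR 2.4.2a and HTSeq 0.6.1 on GRCm38/mm10, per the submitters' processing notes. Annotation release and strand setting are not given in the sources used here. Symbols (36345 genes) and positions came from GENCODE M21. Total counts were 32397302 to 41234883. Counts were tested with edgeR 4.0.16 in R 4.3.3 (TMM scaling, filterByExpr on the 4 cells of genotype and class, robust quasi-likelihood fit, genotype as covariate, Myh7 left out of the 15067 genes adjusted). Standard errors were derived from the F statistic. Copies were found with BLAST 2.17.0. The script was tested on simulated data.

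The classes, the 38 gene lists (489 genes) and the tests were chosen with earlier results of these data known. Named genes were Myh7, Myh6 and Pkp2, called genes without overlap, filled to 20 by smallest p (predicted and sex-linked genes left out), up to 4 called or 2 leading members per list, and the 5 genes most and least like Myh7; a part of them is printed. Alternatives were other scalings (RLE, upper quartile, library size), other filters, DESeq2 1.42.0, limma-voom (limma 3.58.1), no genotype covariate, log2 Myh7 as covariate, title digits as covariate, and leaving out each library. Over genes of at least 200 counts, the mean chi-square per gene between libraries of a class was 14.9 or more, so no library was another one repeated.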

Additional observations from a re-analysis of the deposited data

Results flagged for a closer look

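Within a Myh7 class of 4 libraries, a library is listed here where its gap to the nearest other, divided by the range of the class, was above Dixon's 95% critical value for 4 samples. Of 260 sets of 4 values examined, 25 had such a library, where chance gives about 1 in 20, or 13.

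Among Myh7-high libraries, WT 3 had 1723 CPM of Iigp1 (the other 3 had 59.7 to 82.0), 172.5 CPM of Col1a1 (154.9 to 156.3), a macrophage marker score of 0.40 (-0.15 to -0.08) and a mitochondrially encoded score of -0.34 (0.07 to 0.14). WT 2 had an endothelial marker score of -0.12 (-0.02 to -0.01) and a Schwann cell marker score of -0.64 (0.08 to 0.16). HET 3 had a potassium and sodium channel score of 0.13 (-0.03 to -0.01) and an integrated stress response score of 0.13 (-0.03 to -0.01).

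Among Myh7-low libraries, HET 4 had 350.3 CPM of Col3a1 (369 to 373), 88.0 CPM of Col5a1 (95.2 to 95.7) and 171.0 CPM of Col1a1 (199 to 205). HET 1 had 0.504 CPM of Adipoq (0.0481 to 0.102), a thick filament and myosin score of 0.0734 (-0.0156 to -0.00675) and a red cell marker score of 0.19 (-0.03 to 0.00). WT 1 had 51.5 CPM of Col5a2 (46.5 to 47.3) and 3.75 CPM of Wee1 (4.66 to 4.83).

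WT 4 had the most entries of the Myh7-low class. Its levels were 15.6 CPM of Scd1 (14.5 to 14.6), 232 CPM of Myh7b (271 to 276), 2.84 CPM of Wt1 (4.59 to 4.75), 15591 CPM of mt-Nd5 (19235 to 19889), 28.7 CPM of Fos (15.8 to 17.8) and 0.0768 CPM of Gm6768 (0.239 to 0.253). Its scores were -0.0815 for activated fibroblast and tendon-like genes (0.23 to 0.26), 0.10 for lymphocyte markers (-0.31 to -0.25) and -0.78 for mesothelial markers (-0.10 to -0.05). Of the genes past the threshold, only Gm6768 is in this list.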

How the results depend on the processing

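The count of genes higher in Myh7-high libraries (5) was 1 where at least 1 CPM was required in 4 libraries, 3 with limma-voom and 19 with DESeq2. The count lower (4) was 42 with DESeq2 and 7 with the title digits as a covariate. Leaving out each library gave 1 to 5 higher and 0 to 8 lower genes; without HET 4 or WT 1 there was 1 call in all, and without WT 2 there were 13. DESeq2 called 18 interaction genes where edgeR called 0. The cause was not tested. The class difference in total counts (-988754) was -1866250 to 740746 with each library left out, and that in mitochondrial percent (0.0539) -0.397 to 1.07.

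Log2 differences near 0 changed sign. Myh6 had -0.00638 under upper-quartile scaling, -0.000191 per doubling of Myh7 and -0.000115 with title digits. With title digits Myh7b had 0.0249, Sox10 0.0592, S100b 0.0312, Hbb-bs 0.0623, Tnnt2 -0.0135, mt-Nd4 -0.115 and Wee1 -0.0622, and Hba-a2 had -0.0204 with limma-voom. With each library left out, the range was -0.0161 to 0.0233 for Myh6, -0.0249 to 0.225 for Adgre1, -0.0151 to 0.191 for Cd68, -0.421 to 0.0914 for S100b, -0.233 to 0.223 for Hba-a2, -0.357 to 0.163 for Hbb-bs, -0.145 to 0.00275 for mt-Nd5, -0.0444 to 0.161 for mt-Nd4 and -0.00707 to 0.409 for Wee1. The other named genes kept their sign in every setting run.

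No paired analysis was possible because the replicate numbers were given in order of deposition. With 2 libraries in each cell of genotype and class, and 0 to 10 counts per Myh7-low library for the pseudogenes and Ccnb1ip1, depth limits the precision of their folds.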
